A study of Arabidopsis thaliana with 15 samples.

Results

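The microRNA miR159 and the GAMYB-like transcription factor genes it targets were followed in leaves of Arabidopsis thaliana. The members were taken by name from the deposited tables: ath-miR159a, ath-miR159b-3p and ath-miR159c from the small RNA table, and the precursor gene MIR159a (AT1G73687), MYB33 (AT5G06100), MYB65 (AT3G11440) and MYB101 (AT2G32460) from the RNA-seq table. These are 7 of 73621 rows in both tables, 3 of 427 small RNA rows and 4 of 73194 RNA-seq rows. After the filter on low counts 5 of the 7 could be tested, and ath-miR159c and MYB101 could not. The study compared prp4k3, given in the design text as a line with an artificial microRNA, amiR-PRP4K3, with Col-0, the wild-type accession. Both were untreated plants of 3 weeks, and the tissue was leaves. Each genotype had 3 libraries of RNA-seq and 3 of small RNA-seq. The promoter that drives the artificial microRNA, and whether the line is 1 transformant, are not stated in the labels, nor is it said whether both assays used the same plants. Whether replicates are separate plants is not stated, and p-values then reflect only how far these samples spread, in part perhaps technically.

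miR159 is one of the most abundant and most conserved plant microRNAs. MIR genes are transcribed into primary transcripts, which the nuclease DCL1 cuts with the help of SERRATE and HYL1, and the mature strand guides ARGONAUTE1 to target mRNAs. In leaves miR159a and miR159b, whose sequences are nearly identical, keep MYB33 and MYB65 silent, and plants that lack both microRNAs are small with curled leaves. MYB33, MYB65 and MYB101 are related to GAMYB, a factor known from cereal aleurone that acts in gibberellin responses. miR319 is a relative of miR159 in sequence with other targets, the TCP genes that restrain leaf growth.

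RNA-seq libraries held 16041754 to 16955629 counts in prp4k3 and 18305640 to 19344157 in Col-0, while small RNA libraries held 305617 to 636914 counts in prp4k3 and 792586 to 1156591 in Col-0. Levels are CPM, counts relative to library size, scaled with TMM factors, which hold the bulk of features level between libraries, and log2 fold changes are prp4k3 over Col-0 with their standard error. Scaling by total counts instead moves the median log2 fold change of all RNA-seq features to 0.86, against 0.02 with TMM, so each RNA-seq direction below is relative to the TMM scale. Features with an adjusted p under 0.05 (Benjamini-Hochberg) in edgeR's quasi-likelihood test are described as called, which held for 65.8% of RNA-seq features and 37.2% of miRNA rows. The small RNA library of prp4k3 replicate 2 stood apart: its TMM factor was 0.816 against 1.14 in both other prp4k3 libraries, and miR159 made up 5.46% of its miRNA counts against 10.9% and 10.2% in the others. Mature miRNA results are therefore given with and without it.

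Mature miR159b-3p was lower in prp4k3 leaves, while for miR159a no difference was called. Both rank among the most abundant rows of the small RNA table. ath-miR159b-3p had 41693, 29814 and 40847 CPM in the prp4k3 libraries, against 62389, 52620 and 60964 CPM in the Col-0 libraries. The genotypes did not overlap, as in 56.3% of tested miRNA rows. Its mean was 37451 ± 6628 CPM in prp4k3 and 58658 ± 5277 CPM in Col-0 (SD, n = 3 each), a log2 fold change of -0.65 ± 0.22 (adjusted p = 0.0437, edgeR), where 18.6% of miRNA rows were called lower. Without prp4k3 replicate 2 the value was -0.49 (adjusted p = 0.00113, edgeR). The call rested on the libraries and on the scaling: it was lost when any one of the other 5 libraries was left out, with adjusted p between 0.1004 without Col-0 replicate 2 and 0.261 without prp4k3 replicate 1, and also with RLE factors (-0.56, adjusted p = 0.116).

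ath-miR159a had 53859, 37160 and 48529 CPM in prp4k3, against 54725, 50598 and 60934 CPM in Col-0. The ranges overlapped, with prp4k3 replicate 2 the lowest of the 6. The log2 fold change was -0.25 ± 0.22 (adjusted p = 0.382, edgeR) with a 95% interval of -0.75 to 0.25, and without prp4k3 replicate 2 it was -0.09 (adjusted p = 0.53). Summed over the 3 rows, miR159 had 84156 ± 15450.3 CPM in prp4k3 and 113898 ± 9646 CPM in Col-0 (SD, n = 3 each), a log2 fold change of -0.44 ± 0.23 that was not called (adjusted p = 0.164, edgeR). The sum did not overlap between genotypes, nor did 56.3% of tested miRNA rows. Without prp4k3 replicate 2 the sum had -0.20 (adjusted p = 0.317, edgeR). The small RNA table counts named miRNAs only, so these levels are relative to the other miRNAs in a library, and say nothing of how much miRNA a leaf held in all.

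ath-miR159c was rare. It had 0, 0 and 3 counts in the prp4k3 libraries, against 14, 5 and 15 counts in the Col-0 libraries. Relative to library size the pooled ratio of prp4k3 to Col-0 was 0.207, with an exact 95% interval of 0.0408 to 0.66 that covers counting error only. All prp4k3 counts came from replicate 3, so the log2 ratio of -2.27 became -1.43 without prp4k3 replicate 1 and -1.48 without replicate 2, and has no value without replicate 3. In the 2 prp4k3 libraries without a count, the exact 95% intervals of the miR159c share of miR159 reads reached up to 0.00979% and 0.0106%. Its share in Col-0 lay between 0.00614% and 0.0118%, so at this depth the share alone does not separate the genotypes. Tested without a filter on low counts it did not pass (adjusted p = 0.0953, edgeR), whereas the authors' deposited table lists it with an adjusted p of 0.00991. The passenger arm ath-miR159b-5p had 8, 3 and 6 counts in prp4k3, against 23, 19 and 13 counts in Col-0. Its log2 fold change was -0.45 ± 0.47 (adjusted p = 0.451, edgeR) and 0.04 without prp4k3 replicate 2.

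**Figure D1:**
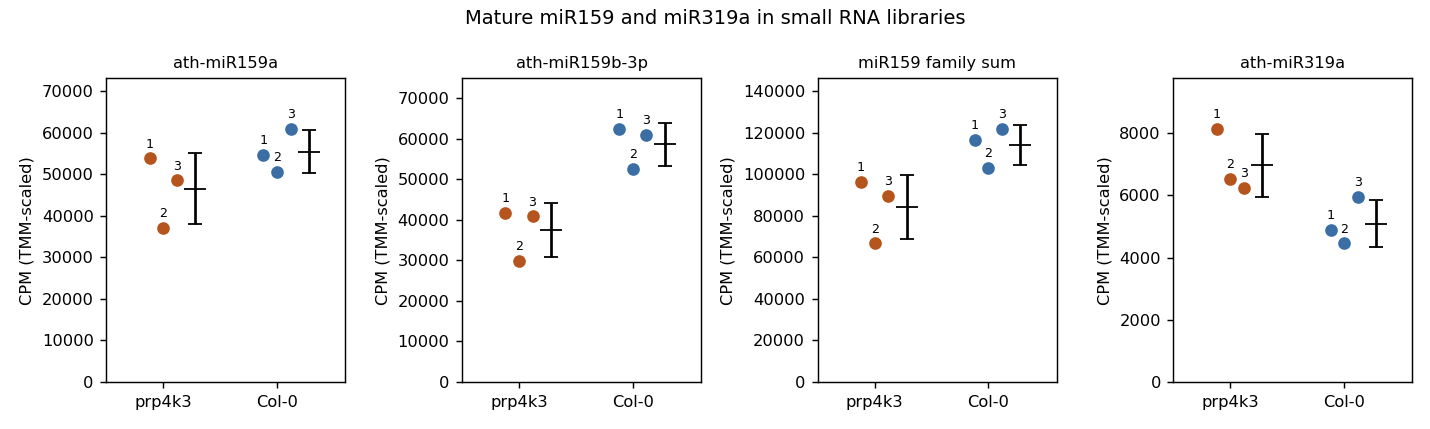
TMM-scaled CPM (vertical axes, from 0) of ath-miR159a, ath-miR159b-3p, their family sum with ath-miR159c, and ath-miR319a in the 3 prp4k3 and 3 Col-0 small RNA libraries. Points are libraries with their replicate number, bars are mean and SD; miR159b-3p does not overlap between genotypes, and prp4k3 replicate 2 is the lowest library for both miR159 rows.

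The balance between the 2 main miR159 species did not overlap between the genotypes, and no scaling alters it, since both are counted in the same library. In prp4k3, ath-miR159b-3p made up 43.6%, 44.5% and 45.7% of miR159 counts, against 53.3%, 50.98% and 50.01% in Col-0. Every exact 95% binomial interval of prp4k3, up to 46.3%, lay below every interval of Col-0, from 49.7% upward. These intervals cover counting error only and leave out the spread between libraries. Those of the Col-0 libraries did not overlap each other either. The library that stood apart in its miR159 level, prp4k3 replicate 2, lay between the other prp4k3 libraries here. Counts of miR159b-3p per count of miR159a were 0.774, 0.802 and 0.842 in prp4k3 and 1.14, 1.04 and 1.0005 in Col-0. The mean log2 ratio was -0.31 ± 0.06 in prp4k3 and 0.08 ± 0.10 in Col-0 (SD, n = 3 each), a difference of -0.39. An exact two-sided permutation test gave p = 0.1, its lowest possible value with 3 libraries on each side (0.15 adjusted over the 3 ratios that could be computed). The difference lay between -0.43 and -0.34 when any 1 library was left out. How the authors assigned reads that match both rows is not given in the sources used here.

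For the 3 miR319 rows edgeR called no difference, while DESeq2 called miR319a higher. ath-miR319a had 8137, 6522 and 6249 CPM in prp4k3, against 4879, 4455 and 5949 CPM in Col-0. The genotypes did not overlap, as in 56.3% of tested miRNA rows. Its log2 fold change of 0.45 ± 0.20 missed the threshold (adjusted p = 0.117, edgeR) and passed it in 4 of 17 alternatives. These were DESeq2 (0.55, adjusted p = 0.0429), nearly identical rows kept once (0.60, adjusted p = 0.0303), and edgeR without prp4k3 replicate 2 (0.52, adjusted p = 0.00566) or without prp4k3 replicate 3 (0.72, adjusted p = 0.0366). ath-miR319b, whose counts nearly repeat those of ath-miR319a, had 0.43 ± 0.20 (adjusted p = 0.136), and passed without prp4k3 replicate 2 (0.49, adjusted p = 0.00868) or replicate 3 (0.69, adjusted p = 0.0407). ath-miR319c had -0.26 ± 0.21 (adjusted p = 0.346), and -0.11 without prp4k3 replicate 2 (adjusted p = 0.653). Counts of miR319a per count of miR159a, a quantity chosen after the values were seen and not tested, were 0.151, 0.176 and 0.129 in prp4k3 and 0.0892, 0.0881 and 0.0976 in Col-0.

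The precursor gene MIR159a was lower in prp4k3 on the TMM scale, at low counts. It had 11, 18 and 19 counts in the prp4k3 libraries, against 33, 26 and 19 counts in the Col-0 libraries, which are 0.480, 0.836 and 0.870 CPM in prp4k3 and 2.44, 1.76 and 1.41 CPM in Col-0. The genotypes did not overlap on this scale, as in 70.5% of RNA-seq features. The log2 fold change was -1.36 ± 0.31 (adjusted p = 0.00378, edgeR), or 0.729 ± 0.216 CPM in prp4k3 and 1.87 ± 0.522 CPM in Col-0 (SD, n = 3 each), where 31.9% of RNA-seq features were called lower. In the authors' deposited table its log2 fold change is -1.323 with an adjusted p of 0.000212. It kept its call without each of the 6 libraries (log2 fold change -1.53 to -1.13) but not under total-count scaling, where it was -0.52 (adjusted p = 0.155). Among the 18 MIR genes tested, of which 17 were called lower, it was the ninth from the lowest, near their median of -1.30. MIR159b, the source of miR159b, was too low to test, with 14, 8 and 11 counts in prp4k3 and 9, 7 and 10 counts in Col-0. Without the filter its log2 fold change was -0.29 ± 0.41 (adjusted p = 0.569, edgeR). The precursor with a called difference was that of miR159a, and the mature form with one was miR159b-3p. Whether the changes of the 2 loci differ was not tested. MIR159c, with 1 count in prp4k3 and 0 in Col-0, and MIR319a, MIR319b and MIR319c, with 1 to 5 counts over all libraries, could not be compared.

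**Figure D2:**
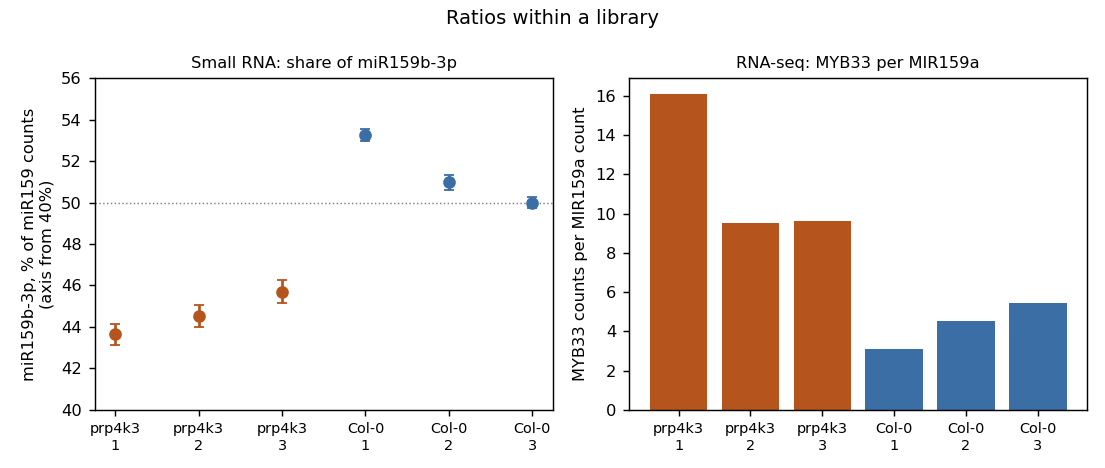
Left, ath-miR159b-3p as a percentage of miR159 counts in each small RNA library with exact 95% binomial intervals (axis from 40%); right, MYB33 counts per MIR159a count in each RNA-seq library (bars from 0). All 3 prp4k3 libraries lie below the Col-0 libraries on the left and above them on the right.

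MYB33 and MYB65, the GAMYB-like genes that miR159 holds down in leaves, were not called different. MYB33 had 7.73, 7.95 and 8.38 CPM in prp4k3, against 7.53, 7.94 and 7.63 CPM in Col-0, from 171 to 183 counts in prp4k3 and 102 to 117 in Col-0. Its log2 fold change was 0.06 ± 0.12 (adjusted p = 0.692, edgeR) with a 95% interval of -0.22 to 0.33. MYB65 had 3.19, 3.02 and 3.48 CPM in prp4k3, against 3.17, 2.58 and 3.48 CPM in Col-0. Its log2 fold change was 0.07 ± 0.18 (adjusted p = 0.732, edgeR), with a 95% interval of -0.32 to 0.47. On the TMM scale a doubling or a fall by a log2 unit thus lies outside both intervals, and the genotypes overlap in both genes. Under total-count scaling, which called 67.1% of all features higher, both were called higher, with 0.90 for MYB33 (adjusted p = 9.12e-05) and 0.91 for MYB65 (adjusted p = 0.000772), close to the shift of the median of all features under that scaling. By rank, which needs no scaling, MYB33 stood at the percentiles 48.1, 48.7 and 50.5 of 17947 tested nuclear protein-coding genes in prp4k3, and at 50.1, 51.4 and 50.2 in Col-0. MYB65 stood at 25.4, 24.6 and 27.4 in prp4k3 and 29.1, 24.95 and 30.9 in Col-0. In the reference annotation MYB65 overlaps AT3G11450, which had 1588 counts in prp4k3 and 482 in Col-0, and it is not known here if reads were counted by strand, which makes part of the MYB65 counts uncertain.

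The ratio of MYB33 to MYB65 within a library overlapped between the genotypes. MYB33 had 2.42, 2.63 and 2.41 counts per MYB65 count in prp4k3, against 2.37, 3.08 and 2.19 in Col-0, and the mean log2 ratios differed by -0.02 (two-sided exact permutation p = 1.0). The ratio of MYB33 to MIR159a did not overlap: there were 16.1, 9.5 and 9.63 MYB33 counts per MIR159a count in prp4k3 and 3.09, 4.5 and 5.42 in Col-0. The mean log2 ratios, 3.51 ± 0.43 in prp4k3 and 2.08 ± 0.41 in Col-0 (SD, n = 3 each), differed by 1.43 (two-sided exact permutation p = 0.1, the smallest possible, or 0.15 adjusted over 3 ratios). That ratio does not depend on the scaling and rests on the low counts of MIR159a.

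MYB101 and the other GAMYB-like genes were close to undetected. MYB101, which acts in pollen tubes and in abscisic acid responses, had 1, 0 and 1 counts in prp4k3 and 0 in each Col-0 library, all under a floor of 3 counts or 0.131 to 0.222 CPM. MYB81 had 0 counts in prp4k3 and 1 in Col-0, as did MYB120. MYB97, MYB104 and the pollen regulator gene DUO1 had 0 counts in every library. A difference in these genes was not detectable at this depth. Of the 8 listed MYB genes 2 could be tested, MYB33 and MYB65, with 0 called in edgeR, DESeq2 or limma-voom on their own scales. In edgeR 65.8% of all RNA-seq features were called, and 0 of the 2 had an unadjusted p under 0.05. Both were called higher under total-count scaling, as were 67.1% of all features.

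**Figure D3:**
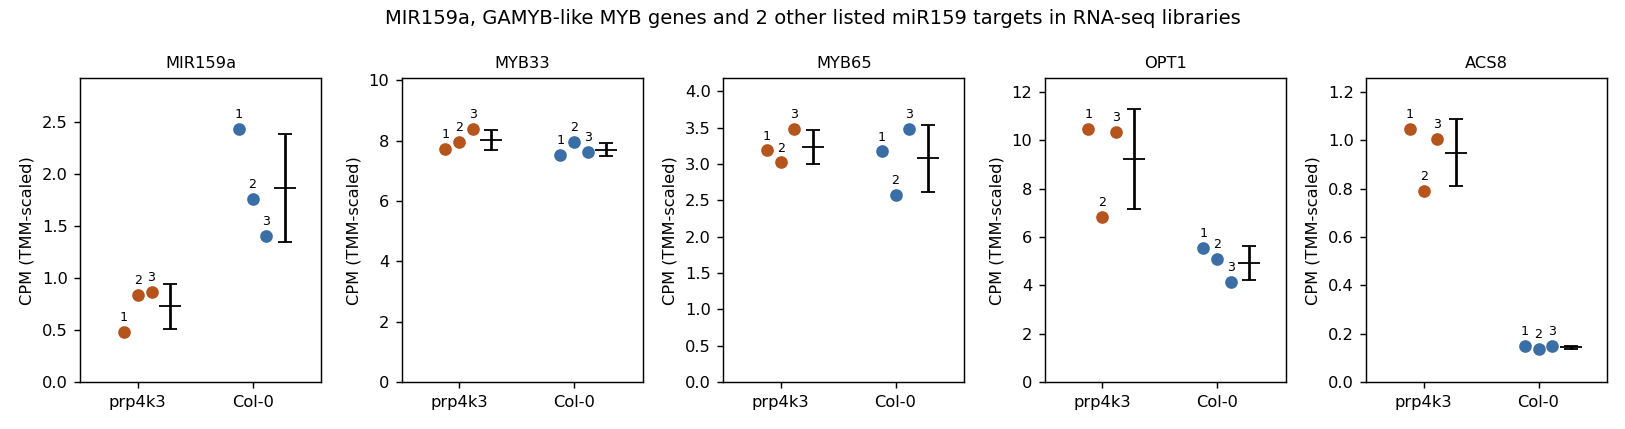
TMM-scaled CPM (vertical axes, from 0) of MIR159a, MYB33, MYB65, OPT1 and ACS8 in the 3 prp4k3 and 3 Col-0 RNA-seq libraries; points are libraries with their replicate number, bars are mean and SD. MIR159a lies lower in prp4k3, MYB33 and MYB65 overlap, and OPT1 and ACS8 lie higher in prp4k3.

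The genes listed as further candidate targets of miR159, OPT1 and ACS8, were both higher in prp4k3, where 33.9% of RNA-seq features were called higher. OPT1, an oligopeptide transporter, had 10.5, 6.83 and 10.3 CPM in prp4k3, against 5.53, 5.09 and 4.15 CPM in Col-0, a log2 fold change of 0.90 ± 0.20 (adjusted p = 0.00286, edgeR). ACS8, which encodes an enzyme of ethylene synthesis, had 24, 17 and 22 counts in prp4k3, against 2 counts in each Col-0 library, with a log2 fold change of 2.67 ± 0.39 (adjusted p = 0.000228, edgeR). The Col-0 counts of ACS8 lie under the floor of 3 counts, so the size of its change is uncertain. Neither gene overlapped between genotypes, as in 70.5% of RNA-seq features, and both kept the call without each library in turn. They also kept it under total-count scaling, which called 67.1% of all features higher.

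The TCP genes targeted by miR319 were lower or not called: 3 of 5 were called lower and 0 higher, where 31.9% and 33.9% of all features were, with a median log2 fold change of -0.52 against 0.02 for all features. The share called in either direction was close to the 65.8% of all features. TCP10 had -0.89 ± 0.12, TCP2 -0.96 ± 0.21 and TCP4 -0.52 ± 0.14, with adjusted p of 0.000132, 0.00271 and 0.00888 (edgeR). TCP24 had -0.15 ± 0.11 and TCP3 0.01 ± 0.16. Under total-count scaling, which called 67.1% of all features higher and 9.81% lower, 0 of the 5 were called lower. TCP2 (-0.12) and TCP10 (-0.05) kept their sign without a call, and TCP4 turned to 0.32 (adjusted p = 0.0665, edgeR). The 2 called higher in that setting were TCP3 (0.85) and TCP24 (0.70).

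Genes reported in the literature to act downstream of MYB33 and MYB65 showed no single direction: of 5 listed, 3 were tested, 1 was called higher and 2 were called lower, where 33.9% and 31.9% of all features were. CP1, a cysteine proteinase gene activated when miR159 is lost, had 15, 16 and 19 counts in prp4k3, against 5, 7 and 1 counts in Col-0. Its log2 fold change was 1.26 ± 0.46 (adjusted p = 0.034, edgeR), and the adjusted p was 0.0528 to 0.106 without any one library other than Col-0 replicate 2, and 0.0729 in DESeq2. MIR156c, a precursor gene of the juvenile-phase microRNA miR156, fell by 1.75 ± 0.30 on the log2 scale (adjusted p = 0.000592, edgeR). The other called fall was SPL9, a phase-change factor, named after its values were seen, at -0.92 ± 0.33 (adjusted p = 0.0341, edgeR). Under total-count scaling, and without prp4k3 replicate 2, Col-0 replicate 2 or Col-0 replicate 3, 1 gene of the list was called lower, MIR156c. Of all features, 9.81% were called lower under total-count scaling, and 5309 to 6001 of 18890 to 18938 with one of those libraries left out. LFY, a floral identity gene, had 11, 3 and 5 counts in prp4k3 and 1, 1 and 2 in Col-0 and was not tested.

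In the gibberellin pathway, in which GAMYB factors act, 4 of the 5 DELLA repressor genes were called lower in prp4k3 on the TMM scale, as were the 4 gibberellin-responsive GASA genes that could be tested. Among 9 genes of perception and DELLA repressors 4 were called lower and 1 higher, where 31.9% and 33.9% of all features were, and the median log2 fold change was -0.53. RGL3, the DELLA gene not called, had -0.53 ± 0.33 (adjusted p = 0.177, edgeR), overlapped between genotypes and was named after its values were seen. RGL1 had 3.89, 4.32 and 4.03 CPM in prp4k3, against 17.8, 25.7 and 27.3 CPM in Col-0, a log2 fold change of -2.53 ± 0.18 (adjusted p = 2.63e-06, edgeR). RGA1, the locus also called RGA, had 44.1, 51.1 and 40.3 CPM in prp4k3 and 124.8, 125.8 and 134.6 CPM in Col-0, a log2 fold change of -1.51 ± 0.12 (adjusted p = 4.53e-06). GID1B, a gibberellin receptor and the 1 member called higher, had 1.14 ± 0.19 and was named after its values were seen. Under total-count scaling, which called 67.1% of all features higher and 9.81% lower, 4 of this list were higher and 3 lower, with RGL1 at -1.69 and RGA1 at -0.66, both still called lower.

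All 4 tested GASA genes of 6 listed were called lower (median -1.71), where 31.9% of all features were. Under total-count scaling, which called 67.1% of all features higher and 9.81% lower, 3 remained lower, with 0 higher. GASA1 fell by 2.02 ± 0.19 on the log2 scale, to 54.8 ± 16.7 CPM in prp4k3, against 222.5 ± 4.97 CPM in Col-0 (SD, n = 3 each; adjusted p = 1.34e-05, edgeR). GASA4 fell by 1.40 ± 0.12 (adjusted p = 8.81e-06). Gibberellin synthesis was mixed, with 1 higher and 2 lower of 7 tested (median -0.53), against 33.9% and 31.9% of all features, so these shares were at or below the background. Total-count scaling gave 3 higher and 0 lower of the 7, against 67.1% and 9.81% of all features. KAO2, an oxidase that acts midway in the pathway, had -0.95 ± 0.12 (adjusted p = 7.59e-05; -0.11 and not called under total-count scaling), while GA20OX1, a late synthesis enzyme, had 1.03 ± 0.27 (adjusted p = 0.00816). Of the gibberellin 2-oxidases, which inactivate the hormone, 0 of 2 tested were called in edgeR or DESeq2, and 0 had an unadjusted p under 0.05 in edgeR. Total-count scaling gave 2 higher, where 67.1% of all features were. In edgeR without the filter on low counts 1 of 6 was called lower, as was 1 of 3 tested without prp4k3 replicate 1, 2 or 3 or without Col-0 replicate 1. Of all features, 5967 of 28246 were called lower without the filter, and 5401 to 6001 of 18857 to 18935 with one of those libraries left out. Not tested by the filter, and named after its values were seen, the locus of GA2OX1 had 0, 4 and 1 counts in prp4k3, against 9, 18 and 18 counts in Col-0.

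**Figure D4:**
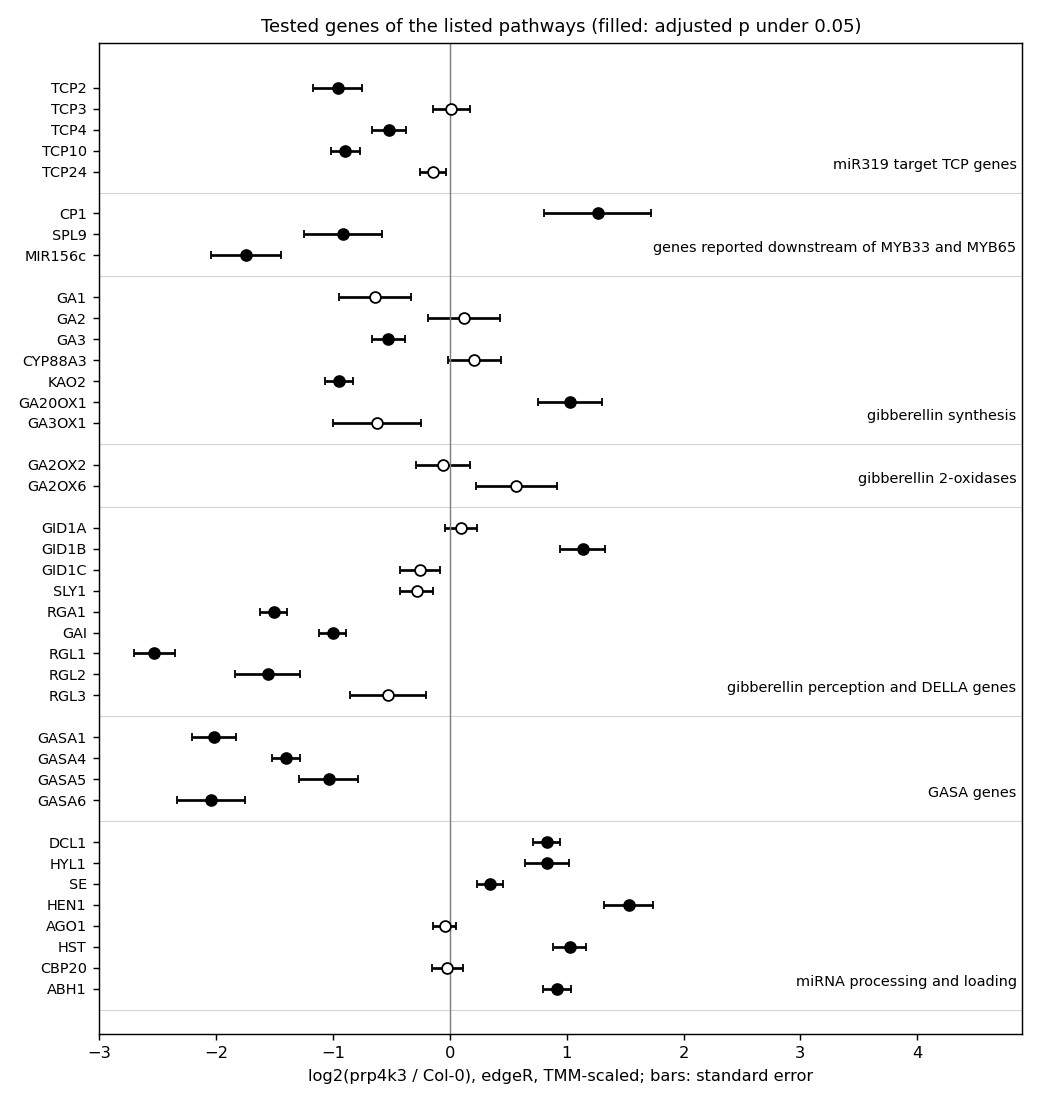
Log2 fold change of prp4k3 over Col-0 (horizontal axis, edgeR on the TMM scale, bars are standard errors) for the tested genes of 7 lists; filled points passed an adjusted p of 0.05. DELLA genes and GASA genes lie left of 0, and genes of miRNA processing at 0 or to the right.

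The genes of the machinery that makes and loads miR159 were higher or not called, with 6 higher and 0 lower of 8, where 33.9% and 31.9% of all features were, and a median log2 fold change of 0.83. All 8 were called higher under total-count scaling, where 67.1% of all features were. HEN1, the methyltransferase that protects mature miRNAs, had 1.53 ± 0.21 (adjusted p = 0.00015, edgeR). ABH1, which encodes the cap-binding subunit CBP80, had 0.92 ± 0.12 (adjusted p = 9.5e-05). The genes not called, named after their values were seen, were AGO1, which encodes ARGONAUTE1, and CBP20. AGO1 had -0.04 ± 0.10 (adjusted p = 0.716, edgeR) and CBP20 -0.02 ± 0.13 (adjusted p = 0.881, edgeR).

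The leaf identity of the libraries was checked with fixed markers. The 4 leaf markers summed to 10976 to 11666 CPM in prp4k3 and 34337 to 37328 CPM in Col-0. RBCS1A and CAB1, photosynthesis genes, fell by 1.59 ± 0.10 and 1.78 ± 0.13 on the log2 scale (adjusted p = 1.84e-06 and 2.79e-06, edgeR). They made up nearly all of these sums, and 31.9% of RNA-seq features were called lower. FIL and AS1 were named after their values were seen. FIL had -1.60 ± 0.17 (adjusted p = 2.89e-05, edgeR), and AS1 had -0.29 ± 0.14 and was not called (adjusted p = 0.0917, edgeR). Under total-count scaling 3 of the 4 were called lower and 1 higher, where 9.81% and 67.1% of all features were. Of 4 pollen markers 3 were at 0 in every library and AGL104 had 1 count in 1 prp4k3 library. Flower and shoot apex markers differed in part: of 6 listed, 2 could be tested, AP1 at 3.90 ± 0.79 (adjusted p = 0.00173) and STM at -0.96 ± 0.24 (adjusted p = 0.00599; -0.11 and not called under total-count scaling). AP1 had 42, 11 and 25 counts in prp4k3 and 0, 2 and 1 in Col-0. SEP3, a floral organ gene, had 37, 8 and 19 counts in prp4k3 and 0 in each Col-0 library. AP3 had 32, 5 and 13 counts in prp4k3 and 0, 1 and 0 in Col-0, and PI 66, 9 and 20 in prp4k3 and 2, 2 and 0 in Col-0, with prp4k3 replicate 1 the highest in each. AG, the last of the 6, had 24, 7 and 11 counts in prp4k3 and 4, 8 and 6 in Col-0. Without the filter on low counts 4 of the 6 were called higher and 1 lower (edgeR). In that setting 6895 of 28246 features were called higher and 5967 lower. The same calls came without prp4k3 replicate 2 and without any one Col-0 library, where all 6 were tested. The 6 summed to 4.32 to 13.1 CPM in prp4k3 and 5.68 to 6.99 CPM in Col-0. STM, which was lower in prp4k3, had a mean of 2.99 CPM in prp4k3 and 5.83 CPM in Col-0 within these sums. Of 3 root markers SHR was tested and had -0.61 ± 0.14 (adjusted p = 0.00312; 0.24 under total-count scaling), and PLT1 was at 0 in every library. WER, not tested by the filter and named after its values were seen, had 5, 3 and 4 counts in prp4k3 and 5, 10 and 6 in Col-0. Without the filter SHR and WER were both called lower (edgeR), where 5967 of 28246 features were. The part of the floral markers in the results for LFY, MIR159a and the MYB genes was not tested. In bulk leaves fewer cells of a type and less RNA per cell cannot be told apart.

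By Pearson's r over the 6 RNA-seq libraries, given as a description, the features most like MIR159a were APG5 (r = 0.993), AT2G44525 (0.988) and NDF5 (0.987), among 11800 features of at least 5 CPM. For MYB33 they were Plsp2A (0.966), AT1G71780 (0.941) and AT2G20360 (0.940), and for MYB65 ADT2 (0.989), CAD1 (0.978) and ATMG00513 (0.969). An r above 0.9 was found for 1052 features with MIR159a, 7 with MYB33 and 19 with MYB65. In the small RNA table, among 145 rows of at least 100 CPM, ath-miR159a was most like ath-miR164c-5p (r = 0.982), and ath-miR159b-3p most like ath-miR157c-3p (0.957). The next rows were pairs with identical counts, ath-miR393a-5p and ath-miR393b-5p for miR159a (0.916), and ath-miR395b and ath-miR395c for miR159b-3p (0.953).

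**Figure D5:**
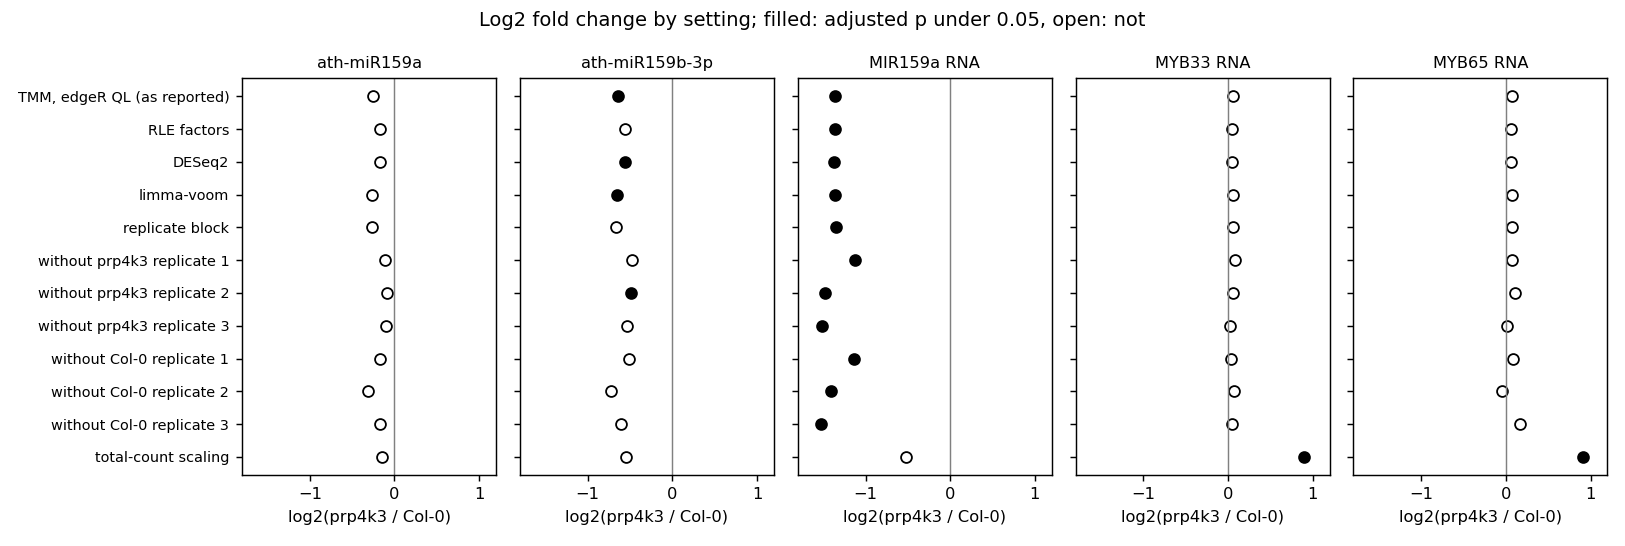
Log2 fold change of prp4k3 over Col-0 (horizontal axes) of 5 members under the reported fit and 11 other settings; filled points passed an adjusted p of 0.05 and open points did not. miR159b-3p loses its call in most settings, and the RNA-seq genes shift to higher values under total-count scaling.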

How the data were processed

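Total RNA-seq and small RNA-seq of leaves were used, 12 libraries in all. The deposited tables hold raw read counts per gene or per named miRNA; TopHat2, HTSeq, SAMtools and edgeR are named in the submitters' processing notes, with no version; which tool did what, and on which genome build, is not given in the sources used here. Per the file headers the deposited tables also hold a scaled score per library, the authors' fold ratio, their log2 fold change and their p-value; the scores were not used. Samples labelled se-2 were not analysed here. Counts were fitted over each whole table with edgeR 4.0.16 in R 4.3.3 (filterByExpr, TMM, quasi-likelihood test, Benjamini-Hochberg adjustment, no replicate block), leaving 18609 RNA-seq features and 215 miRNA rows; the scripts were tested on simulated data. Ratios of members within a library were compared with a two-sided exact permutation test; 3 of 5 planned ratios could be computed, since miR159c and MYB101 had counts of 0. A TAIR10.1 gene table gave names and overlaps. Alternatives used DESeq2 1.42.0 and limma 3.58.1, among others. Intervals of shares and of pooled counts, and floors, cover counting error only. Intervals of log2 fold changes come from the edgeR fit and include its estimate of the spread between libraries. Members, lists and rules for named genes were chosen with earlier results of these data known. Named were all members and miR159 or miR319 rows, all tested genes of the target, MIR and TCP lists, the 2 called genes with the lowest adjusted p of each other list, and for each member the 3 features with the highest correlation.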

Additional observations from a re-analysis of the deposited data

How the results depend on the processing

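The number of called features lay between 11042 and 12334 (RNA-seq) and between 58 and 103 (miRNA rows) when 1 library was left out. Direction held in every setting run for miR159a, miR159b-3p, miR159c, their sum, MIR159a and MYB33, but these settings reuse the same libraries. The edgeR intervals ran from -0.75 to 0.25 for miR159a, from -0.95 to 0.077 for the sum and from -0.22 to 0.33 for MYB33. Each of these intervals holds both signs, so a constant direction does not settle the sign of miR159a, the sum or MYB33. miR159b-3p missed the threshold with RLE factors (-0.56), total-count scaling (-0.54), upper-quartile factors (-0.55), a minimum of 1 CPM in 3 libraries (-0.57), no filter (-0.57), miR159 rows left out of scaling (-0.55) and identical rows kept once (-0.55). With a replicate block it was -0.66 (adjusted p = 0.0842, edgeR), and the block gave 11875 and 69 calls. Same-numbered libraries did not deviate together (r between -0.25 and 0.04), against r between -0.12 and 0.16 for differently numbered ones. With 3 libraries per genotype, each centred on its genotype mean, such a check cannot exclude a pairing. miR159b-3p passed in DESeq2 (adjusted p = 0.0237), limma-voom (0.0496), and with nearly identical rows kept once (0.0486), an alternative chosen after seeing the data. Leaving out 1 library gave -0.72 to -0.47 for miR159b-3p, -0.66 to 0.037 for miR159b-5p, -0.051 to 0.16 for MYB65, -0.14 to 0.14 for TCP3 and -0.12 to 0.12 for the MYB33 to MYB65 log2 ratio, so the sign of the last 4 is not settled. Total-count scaling gave -0.52 for MIR159a, 0.90 for MYB33, 0.91 for MYB65, and turned TCP4 (0.32), TCP24 (0.70) and SHR (0.24). RLE factors moved the median of miRNA rows to -0.03, against -0.14 with TMM. The cause was not tested. MIR159a rests on 11 to 33 counts a library, which limits its precision.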
